A study of Mus musculus with 6 samples.

Results

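The genes described here are those of the DNA damage response and DNA repair, read in 6 YUMM3.3 tumors. A list of 52 gene symbols was grouped by pathway: damage signalling, homologous recombination, the Fanconi anemia pathway, mismatch repair, end joining, single-strand break and base excision repair, nucleotide excision repair, and translesion synthesis. Of the 52 names, 51 matched a row among the 40166 genes of the count table, and all 51 passed the filter on low counts (a median of at least 5 counts in at least 1 group). The remaining name, Claspn, matched no row, and the checkpoint mediator that the table calls *Clspn* is given on its own and counted nowhere.

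YUMM3.3 cells, a mouse melanoma line with mutant BRAF, were injected under the skin of C57BL/6 mice. Mice received water by oral gavage as vehicle (0 mg/kg) or Rigosertib (RGS, 300 mg/kg) on 5 days of each week. Tumors were taken after 17 days of treatment. The study describes RGS as a small molecule that mimics RAS and could block signaling through RAF and PI3K. It also states that several mechanisms of action have been reported for RGS. RNA of whole tumors, with whatever host cells they held, was sequenced from 3 vehicle tumors (numbered 7, 8 and 9) and 3 RGS tumors (10, 11 and 12). The age and sex of these mice are not given in the labels, and they do not say whether each tumor came from a different mouse, so p-values measure the spread between these tumors only.

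Cells answer a break or a stalled replication fork with 2 kinase branches. ATM is activated mainly by double-strand breaks, and ATR, brought by its partner ATRIP and activated by TOPBP1, by single-stranded DNA at stalled forks, and they act through the checkpoint kinases CHK2 and CHK1. Breaks are then sealed by end joining, in which the Ku heterodimer holds the ends and XRCC4 with DNA ligase IV joins them, or copied from the sister chromatid by homologous recombination. Crosslinks are handled by the Fanconi anemia proteins, replication errors by mismatch repair, damaged bases and bulky adducts by the excision pathways, and lesions left in the template are passed by translesion polymerases. Many of these genes are transcribed in S phase through E2F factors.

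Promoter sequence was searched because the results below turn on whether repair genes moved together. RefSeq windows of GRCm38.p6 (250 bases before to 50 after a start, 300 in all) were matched to 43 of the 51 genes by symbol, and 8 genes had none. The 30 bases around the E2F letters are shown for the gene with the smallest adjusted p among those of a pathway that hold them before the start, 5′ to 3′ on the gene's strand, with the letters in capitals.
Topbp1 (chr9:103305187-103305216, plus strand): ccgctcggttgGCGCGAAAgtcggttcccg
Brca2 (chr5:150522442-150522471, plus strand): tttaggccacaGCGGGAAAcagacacacac
Msh3 (chr13:92355183-92355212, minus strand): cgtcaagtttgGCGCGAAAtcgcagccctg
Xrcc6 (chr15:82016312-82016341, plus strand): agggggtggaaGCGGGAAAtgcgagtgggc
The letters in capitals end 122 bases before the start in *Topbp1*, 161 in *Brca2*, 191 in *Msh3* and 39 in *Xrcc6*. Each start is that of a RefSeq transcript. In *Xrcc6* this start and the stretch shown lie inside the gene's annotated span (81987835 to 82040085). *Rad51c* and *Msh6* hold such letters only across or past the start, so these are not shown. Searched on both strands, the E2F letters were TTTCCCGC, TTTCGCGC, TTTGCCGC and TTTGGCGC, and those in capitals are all on the strand opposite to the gene. The *Msh3* stretch also holds TTTGGCGC on the gene's own strand, from 202 bases before the start. This match overlaps the capitals and is not marked. E2F letters were in the windows of 8 of 43 genes (18.6%), beside 2.27% of all 32851 windows and 4.55% of the 10708 tested genes with a window.

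The core letters of an NRF1 site, GCATGCGC, were in 8 of 43 genes as well (18.6%), beside 2.71% of all windows and 5.63% of the 10708 tested genes with a window. They are shown for the 4 genes past the threshold that hold them before the start, a set chosen after the values were seen.
Atm (chr9:53536704-53536733, minus strand): gtcgtgcggcgGCGCATGCcgacttcttcc
Fanci (chr7:79392142-79392171, plus strand): cataccataacGCGCATGCtactctgaggt
Lig4 (chr8:9977714-9977743, minus strand): cacccctatgcGCATGCGCaggacactggg
Polh (chr17:46202715-46202744, minus strand): gccgccacggcGCATGCGCgcgcggaagtg
In *Lig4* and *Polh* the letters lie in a palindrome that matches on both strands, which *Lig4* holds once and *Polh* 2 times before the start. *Xrcc5* holds them only across its start, which is not shown. The stretches of *Atm* and *Fanci* lie inside the annotated spans of these genes (53439149 to 53536740 and 79391929 to 79450264), before the start of a RefSeq transcript. The CCAAT letters were in 24 genes (55.8%, all windows 37.4%, tested genes with a window 42.9%). The CHR letters TTTGAA were in 2 (4.65%, all windows 17.9%, tested genes with a window 14.4%). A match is a run of letters and was not tested as a binding site.

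Repair genes leaned lower in RGS tumors, with 5 of 6 genes that fell in damage signalling and 2 of 2 in translesion synthesis, and 0 of 7 in nucleotide excision repair (pathways were not tested against each other). At an adjusted p under 0.05 (edgeR's quasi-likelihood test, adjusted over 15355 genes), 16 of the 51 genes were lower with RGS (31.4%), beside 16.5% of all tested genes. Only 2 of the 51 were higher (3.92%), beside 16.3% of all tested genes. The other 33 did not pass the threshold, which does not show that they were unchanged. The fitted log2 fold change was negative in 36 genes, and its median over the 51 was -0.47, compared with -0.05 over all tested genes. The 3 RGS tumors were all below the 3 vehicle tumors in CPM (counts scaled to library size with TMM factors) for 22 genes (43.1%, all tested genes 24%) and all above them for 3 (5.88%, all tested genes 21.7%). The 16 genes that fell are all among the 22.

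**Figure D1:**
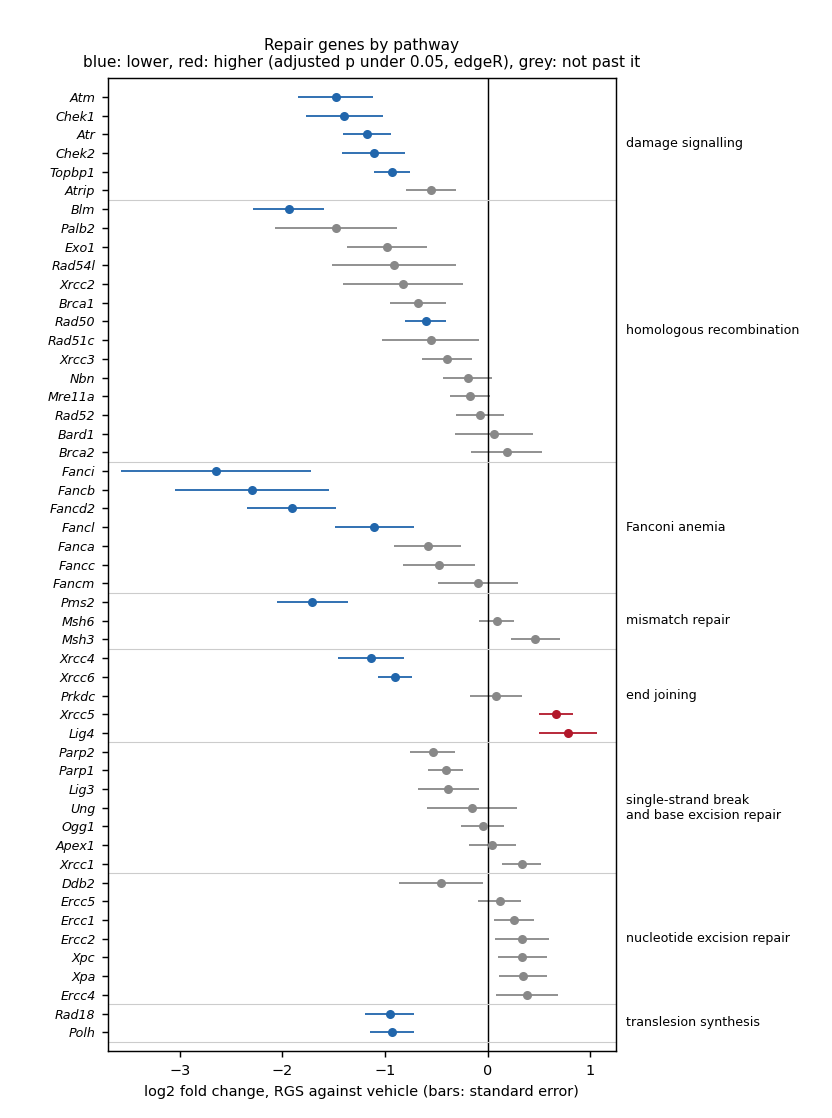
Log2 fold change of each of the 51 repair genes, RGS against vehicle (horizontal axis), with its standard error as a bar, grouped by pathway. The 16 genes in blue fell and the 2 in red (Xrcc5 and Lig4) rose at an adjusted p under 0.05 (edgeR), and every gene of the damage signalling and Fanconi anemia groups lies left of 0.

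The decrease was present in each RGS tumor. Relative to the vehicle mean, the median deviation of the 51 genes on the log2 CPM scale was -0.58, -0.41 and -0.37 in RGS tumors 10, 11 and 12, and between -0.03 and 0.03 in the vehicle tumors. The same median over all tested genes was between -0.08 and -0.05 in the RGS tumors. Of the 51 genes, 38, 34 and 36 were below the vehicle mean in RGS tumors 10, 11 and 12, and 21, 24 and 28 in vehicle tumors 7, 8 and 9. The lowest of the 3 RGS values was in tumor 10 for 21 genes, in tumor 11 for 14 and in tumor 12 for 16. The coefficient of variation had a median of 14.4% among vehicle tumors and 22.4% among RGS tumors. Summed over the 51 genes, the level was 1145 to 1255 CPM in vehicle tumors and 942 to 1015 CPM in RGS tumors.

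**Figure D2:**
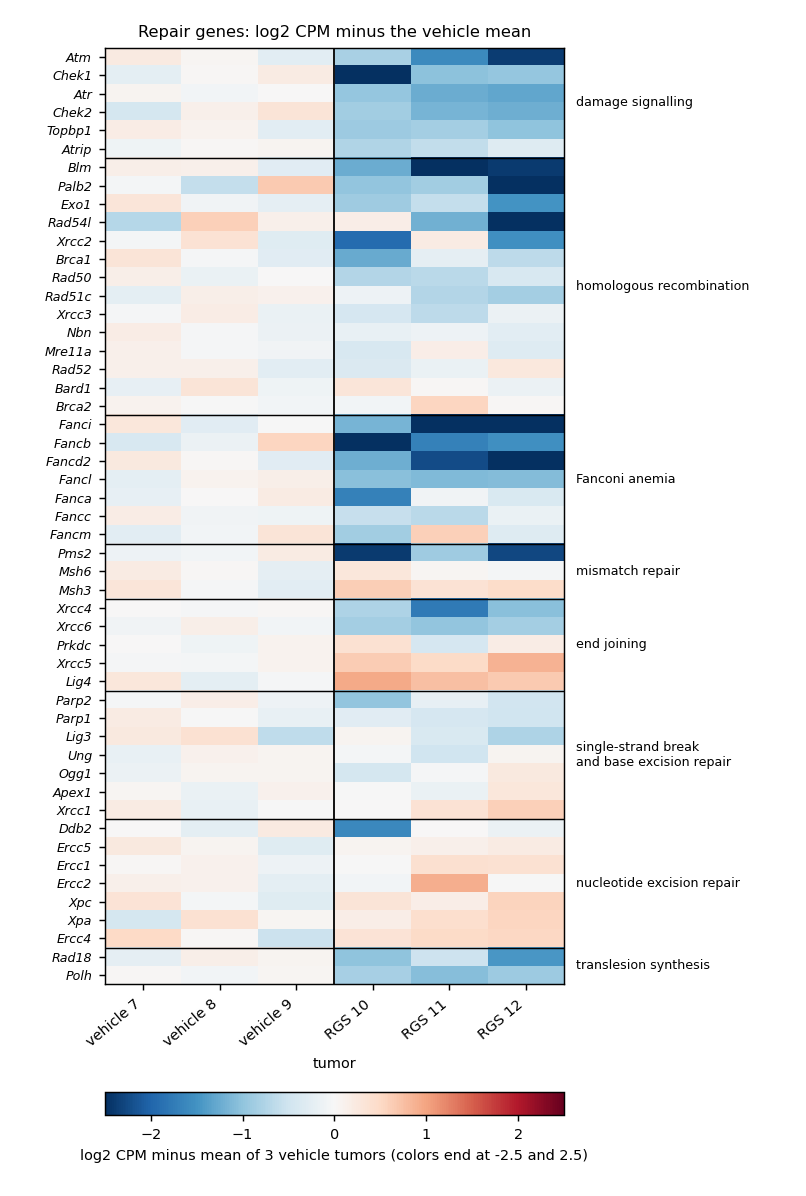
Log2 CPM minus the mean of the 3 vehicle tumors for each of 51 repair genes (rows, by pathway) in each of 6 tumors (columns). Blue fields, lower than the vehicle mean, fill the columns of all 3 RGS tumors in the damage signalling group, while the nucleotide excision repair group is mostly pale or red there. The color scale ends at -2.5 and 2.5.

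Libraries held 13837932 to 32555494 counts, and the shallowest vehicle library still held more than the deepest RGS library, so effects of depth and of RGS cannot be told apart here. Thinning all libraries to the smallest total gave 19 lower and 2 higher repair genes. Counts of mitochondrial genes made up 2.13% to 3.200% of vehicle libraries and 5.60% to 8.22% of RGS libraries, and the part of this difference in the results was not tested. Leaving mitochondrial genes out gave 16 lower and 2 higher repair genes. A floor of 3 counts was 0.0856 to 0.226 CPM, which covers counting error only, because without molecular identifiers 1 molecule can give several reads. In bulk tumors, fewer cells of a type and less RNA per cell cannot be told apart.

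Of the 6 damage signalling genes 5 fell (83.3%, all tested genes 16.5%). In all 6 the RGS tumors were below the vehicle tumors (100%, all tested genes 24%). The sum of the 6 was 168 to 186 CPM in vehicle tumors and 86.3 to 91.3 CPM in RGS tumors, and the median log2 fold change was -1.14. *Topbp1*, the activator of ATR (chromosome 9, 103305215 to 103350428 in GRCm38), was at 97.7, 92.1 and 71.4 CPM in vehicle tumors 7, 8 and 9 and at 46.2, 48.1 and 42.8 CPM in RGS tumors 10, 11 and 12. The 3 RGS values were close together and all below the lowest vehicle value. Its log2 fold change was -0.93 (SE 0.17, edgeR adjusted p = 4.37e-04), which is 1.91-fold lower.

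*Atr*, the kinase of stalled forks (chromosome 9, 95857597 to 95951781), was at 27.2, 24.8 and 26.1 CPM with vehicle and 13.3, 10.9 and 10.5 CPM with RGS. Both groups were tight, with means of 26.1 ± 1.197 and 11.5 ± 1.498 CPM (SD, n = 3 each). *Atm*, the kinase of double-strand breaks (chromosome 9, 53439149 to 53536740), was at 17.98, 15.8 and 12.7 CPM with vehicle and at 8.66, 5.05 and 2.88 CPM with RGS. The log2 fold changes were -1.17 for *Atr* (SE 0.23, edgeR adjusted p = 7.56e-04) and -1.48 for *Atm* (SE 0.37, adjusted p = 0.00441).

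Of the checkpoint kinases downstream, *Chek1* had 13.1 to 17.8 CPM with vehicle and 2.51 to 7.83 CPM with RGS, and *Chek2* had 11.2 to 19.1 and 6.55 to 8.33 CPM. Their log2 fold changes were -1.40 and -1.11 (edgeR adjusted p = 0.00757 and 0.00862), and *Chek2* missed the threshold without vehicle tumor 9 (adjusted p = 0.0534). *Atrip*, the partner that brings ATR to DNA, had the largest adjusted p of the group. It was at 18.5, 20.2 and 20.8 CPM with vehicle and 11.8, 12.9 and 15.8 CPM with RGS. The groups did not overlap, but the log2 fold change of -0.56 (SE 0.24) did not pass the threshold (edgeR adjusted p = 0.0896). *Clspn*, whose protein links ATR to CHK1, was at 21.1, 14.4 and 11.4 CPM with vehicle and 2.75, 4.90 and 4.16 CPM with RGS (log2 fold change -2.0, SE 0.36, edgeR adjusted p = 2.69e-04).

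In homologous recombination 2 of 14 genes fell (14.3%, all tested genes 16.5%), 12 had a negative log2 fold change, and the median was -0.58. Their sum was 215 to 251 CPM with vehicle and 159 to 186 CPM with RGS. *Blm*, the helicase that dissolves recombination intermediates (chromosome 7, 80454733 to 80535119), was at 21.8, 21.6 and 16.2 CPM with vehicle and at 8.29, 3.39 and 3.67 CPM with RGS. Its highest RGS value lay well below its lowest vehicle value, and with a log2 fold change of -1.94 (SE 0.34, edgeR adjusted p = 2.60e-04) it was 3.84-fold lower.

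*Rad50*, the ATPase of the complex that senses and trims broken ends, was at 42.4, 34.1 and 38.4 CPM with vehicle and 22.8, 24.0 and 28.8 CPM with RGS (chromosome 11, 53649519 to 53707319). The groups did not overlap, and the log2 fold change was -0.60 (SE 0.20, edgeR adjusted p = 0.0265). This call was fragile: the adjusted p was 0.0660, 0.0597 and 0.0646 without vehicle tumor 7, 8 or 9 and 0.0857 and 0.0746 without RGS tumor 10 or 11. The other subunits of the complex, *Mre11a* and *Nbn*, had log2 fold changes of -0.17 (SE 0.19) and -0.19 (SE 0.24), and their groups overlapped.

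*Brca1*, which promotes end resection, *Palb2*, which joins BRCA1 to BRCA2, and the exonuclease gene *Exo1* lay close to the threshold, with log2 fold changes of -0.68, -1.48 and -0.98 (edgeR adjusted p = 0.0646, 0.0650 and 0.0596). *Brca1* passed the threshold in 6 of 17 fits, 1 of them without vehicle tumor 9 (adjusted p = 0.0347), and all 3 passed it without RGS tumor 11 (0.0171, 0.0383 and 0.0332). In *Brca1* the groups overlapped, while in *Palb2* and *Exo1* the RGS tumors were all lower. *Brca2*, the loader of the recombinase, had a log2 fold change of 0.19 (SE 0.35).

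*Bard1*, the partner of BRCA1, had the largest adjusted p of the group. It was at 5.14, 7.41 and 5.50 CPM with vehicle and 7.39, 6.10 and 5.38 CPM with RGS, so the groups were interleaved (log2 fold change 0.07, SE 0.38, edgeR adjusted p = 0.913). The other 5 genes had log2 fold changes between -0.91 (*Rad54l*) and -0.07 (*Rad52*), and their groups overlapped. *Xrcc2* passed the threshold without RGS tumor 11 (adjusted p = 0.0231) and *Rad54l* without RGS tumor 10 (0.0347).

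**Figure D3:**
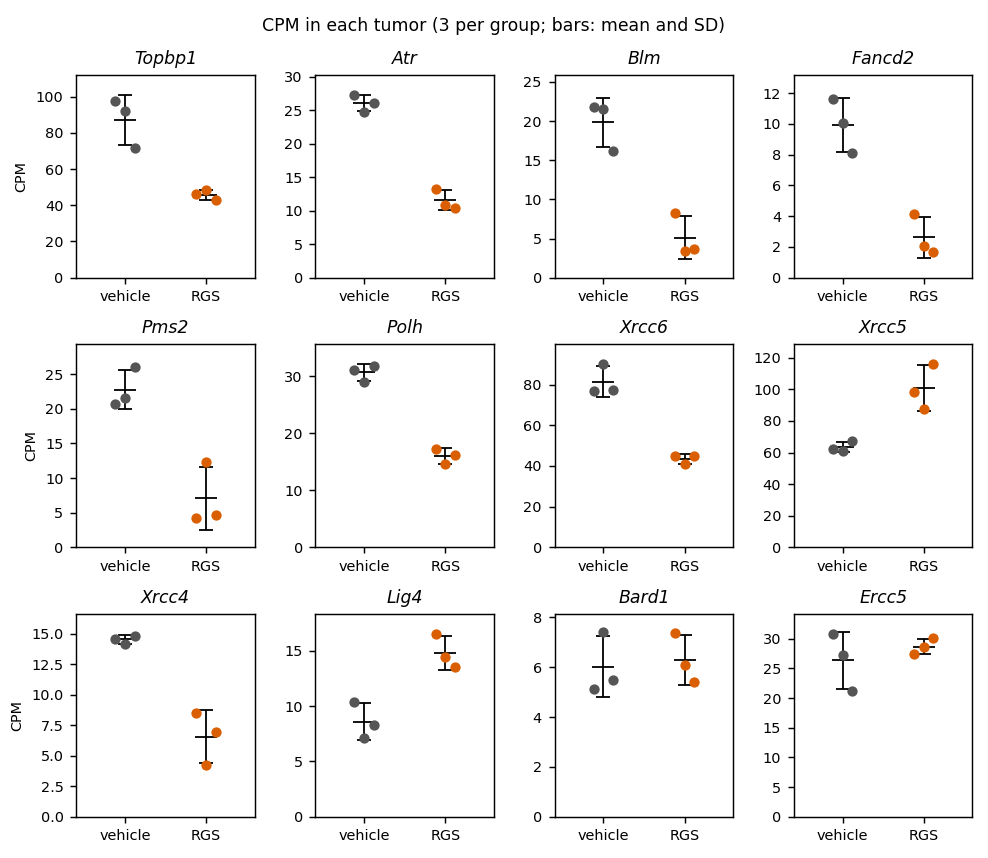
CPM of 12 repair genes in each tumor (points; 3 vehicle in grey, 3 RGS in orange), with the mean and SD of each group as bars, on axes that start at 0. The 2 groups are separated in 10 of the panels, with RGS below vehicle in 8 and above it in Xrcc5 and Lig4, and they overlap in Bard1 and Ercc5.

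Of 7 genes of the Fanconi anemia pathway 4 fell (57.1%, all tested genes 16.5%). Their vehicle levels were low, from 0.822 CPM per kb (*Fanci*) to 2.40 CPM per kb (*Fancl*), beside a median of 2.83 over the repair genes. The pathway's sum was 61.5 to 70.1 CPM in vehicle tumors and 26.1 to 43.2 CPM in RGS tumors, with a median log2 fold change of -1.10 and 7 of 7 negative. *Fancd2*, one of the 2 proteins that are monoubiquitinated when the pathway is switched on (chromosome 6, 113531682 to 113597017), was at 11.6, 10.1 and 8.13 CPM with vehicle and 4.17, 2.03 and 1.65 CPM with RGS. All 3 RGS tumors were far below the vehicle tumors (log2 fold change -1.91, SE 0.43, edgeR adjusted p = 0.00211).

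*Fancb*, part of the core ubiquitin ligase complex (chromosome X, 164980592 to 164997272), was at 4.57, 5.45 and 8.77 CPM with vehicle and 0.05, 1.81 and 2.02 CPM with RGS. The count behind the lowest value was 1 read, beside 24 and 33 in the other RGS tumors and 153 to 204 in vehicle tumors. The log2 fold change was -2.30 (SE 0.75, edgeR adjusted p = 0.0250), and without vehicle tumor 9 the adjusted p was 0.0648. *Fancl*, the ligase subunit itself (chromosome 11, 26386135 to 26471876), was at 6.77, 8.59 and 8.90 CPM with vehicle and at an even 3.83, 3.69 and 3.73 CPM with RGS. Its log2 fold change was -1.10 (SE 0.39, adjusted p = 0.0348), and it missed the threshold without vehicle tumor 8 (adjusted p = 0.156) or 9 (0.122), in limma voom (0.0581) and with no filter on low counts (0.0627).

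*Fanci*, the partner of FANCD2, had 201, 108 and 108 counts in vehicle tumors and 43, 0 and 2 counts in RGS tumors. It had the largest fall among the repair genes, a log2 fold change of -2.65, and the largest error (SE 0.93, edgeR adjusted p = 0.0352). It missed the threshold without vehicle tumor 7 (adjusted p = 0.0879) or RGS tumor 12 (0.0826), and its fitted log2 fold change ran from -6.05 to -2.11 over 17 fits. The groups of *Fanca* overlapped and those of *Fancc* did not, and neither passed the threshold (log2 fold changes of -0.59 and -0.47). *Fancm*, a translocase that brings the core complex to DNA, had the largest adjusted p of the group. It was at 7.22, 8.30 and 10.9 CPM with vehicle and at 4.73, 13.3 and 6.91 CPM with RGS, where tumor 11 was the highest of all 6 (log2 fold change -0.09, SE 0.39, edgeR adjusted p = 0.880).

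In mismatch repair only *Pms2* of 3 genes passed the threshold, and it was lower (33.3%, all tested genes 16.5%). *Pms2*, which nicks the strand to be corrected (chromosome 5, 143909964 to 143933968), was at 20.8, 21.6 and 26.0 CPM with vehicle and 4.26, 12.3 and 4.59 CPM with RGS. RGS tumor 11 kept more of it than the other two, and all 3 were below vehicle (log2 fold change -1.71, SE 0.35, edgeR adjusted p = 9.71e-04). The mismatch sensors did not pass the threshold. *Msh6* was at 75.4, 67.0 and 56.4 CPM with vehicle and 79.7, 68.3 and 63.4 CPM with RGS, overlapping groups (log2 fold change 0.09, SE 0.17, adjusted p = 0.739). *Msh3*, which senses larger loops, was higher in every RGS tumor but did not pass the threshold (log2 fold change 0.47, SE 0.24, adjusted p = 0.149).

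End joining was the pathway in which partners went opposite ways. Of its 5 genes 2 were lower and 2 higher (40% each), beside 16.5% and 16.3% of all tested genes. *Xrcc6*, which encodes Ku70 (chromosome 15, 81987835 to 82040085), was at 76.8, 90.0 and 77.5 CPM with vehicle and 45.02, 40.7 and 44.97 CPM with RGS. *Xrcc5*, which encodes its partner Ku80 (chromosome 1, 72307421 to 72394952), was at 62.0, 61.0 and 67.3 CPM with vehicle and 98.5, 87.8 and 116 CPM with RGS. Neither gene's groups overlapped. *Xrcc6* fell 1.87-fold (log2 fold change -0.90, SE 0.17, edgeR adjusted p = 3.94e-04) and *Xrcc5* rose 1.59-fold (0.67, SE 0.17, adjusted p = 0.00425). Both kept their call in each of the 17 fits.

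The ligation step showed the same opposition with weaker support. *Xrcc4*, the scaffold of the ligase (chromosome 13, 89774027 to 90089608), was at 14.6, 14.1 and 14.8 CPM with vehicle and 8.47, 4.22 and 6.98 CPM with RGS (log2 fold change -1.14, SE 0.32, edgeR adjusted p = 0.0103), and was past the threshold in all 17 fits. *Lig4*, the ligase itself (chromosome 8, 9969049 to 9977686), was at 10.4, 7.13 and 8.30 CPM with vehicle and 16.5, 14.5 and 13.5 CPM with RGS. The groups did not overlap (log2 fold change 0.79, SE 0.29, adjusted p = 0.0426). *Lig4* was past the threshold in 10 of the 17 fits: it missed it without vehicle tumor 8 or 9 (adjusted p = 0.178 and 0.0993) and without RGS tumor 10, 11 or 12 (0.106, 0.0653 and 0.0518), with library totals alone (0.101) and with no filter on low counts (0.0597). *Prkdc*, the kinase that Ku recruits, was at 17.1, 15.8 and 17.9 CPM with vehicle and 21.9, 12.7 and 19.1 CPM with RGS, with overlapping groups (log2 fold change 0.08, SE 0.26, edgeR adjusted p = 0.834).

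Set against each other per gene length, the 2 Ku transcripts shifted in balance. The ratio of *Xrcc5* to *Xrcc6* in CPM per kb was 1.41, 1.19 and 1.52 in vehicle tumors and 3.83, 3.78 and 4.53 in RGS tumors, means of 1.37 ± 0.17 and 4.05 ± 0.42 (SD, n = 3 each). The ratio of *Lig4* to *Xrcc4* was 0.577, 0.408 and 0.453 with vehicle and 1.58, 2.78 and 1.57 with RGS. Both ratios were separate between the groups, and the second was below 1 in every vehicle tumor and above 1 in every RGS tumor. These pairs were chosen after their values were seen, so the ratios are a description with no test. The ratios of 10 pairs were computed in the same way. Outside end joining, *Palb2* to *Brca2* shifted further than the Ku pair, from 1.54 ± 0.73 to 0.478 ± 0.298, with separate groups, and *Brca1* to *Bard1* was 2.75 ± 0.96 and 1.65 ± 0.69, with overlapping groups (SD, n = 3 each). *Atr* to *Atrip* went from 0.400 ± 0.041 to 0.266 ± 0.070 (SD, n = 3 each), and *Ercc4* to *Ercc1*, which encode a nuclease pair, was 0.148 ± 0.047 and 0.165 ± 0.016.

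**Figure D4:**
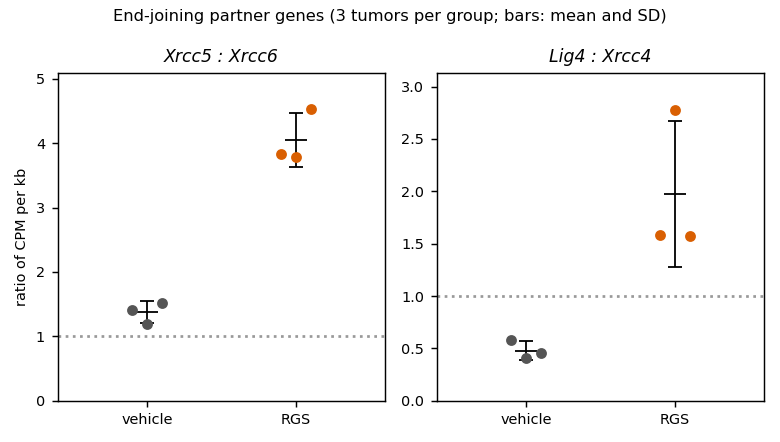
Ratio of CPM per kb between end-joining partner genes in each tumor (points), with the mean and SD of 3 vehicle and 3 RGS tumors; the dotted line marks a ratio of 1. Xrcc5 to Xrcc6 lies between 1.19 and 1.52 with vehicle and between 3.78 and 4.53 with RGS, and Lig4 to Xrcc4 is below 0.6 in every vehicle tumor and above 1.5 in every RGS tumor.

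None of the 14 excision repair genes described here passed the threshold in either direction, beside 16.5% of all tested genes lower and 16.3% higher. In single-strand break and base excision repair this was 0 of 7 genes, with a median log2 fold change of -0.15 and 5 of 7 negative. Closest were the break sensors *Parp1* (log2 fold change -0.41, SE 0.17, edgeR adjusted p = 0.0734) and *Parp2* (-0.53, SE 0.22, adjusted p = 0.0691), in which the RGS tumors were all lower than the vehicle tumors. *Parp2* passed the threshold without RGS tumor 11 (0.0311). *Apex1*, the main endonuclease at abasic sites, had the largest adjusted p. It was at 20.04, 17.4 and 21.03 CPM with vehicle and 19.4, 17.4 and 23.6 CPM with RGS (log2 fold change 0.05, SE 0.23, adjusted p = 0.897).

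In nucleotide excision repair it was again 0 of 7 genes, and the groups overlapped in 7 of 7. Of these, 6 had a positive log2 fold change and the median was 0.33. *Ercc4*, *Xpa*, *Xpc*, *Ercc2* and *Ercc1* lay between 0.26 and 0.39 with standard errors of 0.19 to 0.30, each within 2 standard errors of 0. *Ercc5*, a nuclease that cuts 3′ of the lesion, was at 30.7, 27.2 and 21.2 CPM with vehicle and 27.5, 28.6 and 30.0 CPM with RGS (log2 fold change 0.12, SE 0.21, edgeR adjusted p = 0.706). The damage sensor *Ddb2* was the negative one (log2 fold change -0.45, SE 0.41), with RGS tumor 10 lowest at 2.79 CPM beside 7.34 to 10.2 CPM with vehicle. The fitted values of *Ercc2* and *Ercc5* also took negative signs among the 17 fits, down to -0.07 and -0.03.

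Both genes of translesion synthesis fell (100%, all tested genes 16.5%). *Polh*, the polymerase that copies past ultraviolet lesions (chromosome 17, 46171355 to 46202645), was at 31.1, 29.1 and 31.9 CPM with vehicle and 17.3, 14.5 and 16.2 CPM with RGS. *Rad18*, the ligase that marks PCNA to call in such polymerases (chromosome 6, 112619850 to 112696686), was at 33.5, 43.2 and 41.1 CPM with vehicle and 19.4, 27.3 and 14.1 CPM with RGS. RGS values were below all vehicle values for both, tightly for *Polh* and with more spread for *Rad18*. The log2 fold changes were -0.94 (SE 0.21, edgeR adjusted p = 0.00240) and -0.96 (SE 0.24, adjusted p = 0.00452).

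Over 17 fits, the reported one and those with other scalings, filters and tools or with each tumor left out in turn, 11 genes were lower in every one: *Atm*, *Atr*, *Chek1*, *Topbp1*, *Blm*, *Fancd2*, *Pms2*, *Xrcc4*, *Xrcc6*, *Polh* and *Rad18*. *Xrcc5* was higher in every one, and 25 genes passed the threshold in none. Of the 35 genes with at least 10 CPM in vehicle tumors 12 fell, and of the 16 with less 4 fell, beside 16.5% of all tested genes. Per length, vehicle levels ran from 0.519 CPM per kb (*Brca2*) to 24.8 CPM per kb (*Xrcc5*), with a median of 2.83.

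The promoter letters were found in genes that fell and in genes that did not. Among the 8 genes with E2F letters 3 fell (37.5%, median log2 fold change -0.24), and among the 35 without them 11 fell (31.4%, median -0.47). Over all tested genes with a window, 24.0% of those with E2F letters and 17.4% of those without were lower (medians -0.149 and -0.015). Genes with NRF1 core letters included both that rose, *Xrcc5* and *Lig4*, and 3 that fell, *Atm*, *Fanci* and *Polh*. The share lower was 37.5% with these letters and 31.4% without them, beside 18.6% and 17.7% over all tested genes with a window. Among the 24 genes with CCAAT letters 6 fell and 1 rose, and among the 19 without them 8 fell and 1 rose. The share lower was 25% with CCAAT letters and 42.1% without them, beside 19.7% and 16.2% over all tested genes with a window. The search covers these letters in these windows and was not tested against the differences in expression.

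A list of 117 other genes of the same pathways, written by hand with earlier results of these data known, also held more lower than higher genes. Of 113 tested genes 30 were lower (26.5%) and 3 higher (2.65%), beside 16.5% and 16.3% of all tested genes, and the median log2 fold change was -0.35. In other damage signalling, 6 of 19 were lower, led by *Rif1* (log2 fold change -1.86), which protects broken ends from resection, and *Tipin* (-1.36), which steadies replication forks. Other recombination genes had 6 of 25 lower, including the chromatin remodeler gene *Hells* (-1.59), and 2 higher, the recombinase paralog *Rad51b* (1.38, SE 0.26, edgeR adjusted p = 4.23e-04) and *Sfr1* (0.52). *Rad51b* was at 8.73, 11.9 and 14.3 CPM with vehicle and 30.7, 23.0 and 36.6 CPM with RGS, with separate groups.

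Other Fanconi genes had 3 of 12 lower. The 2 with the smallest adjusted p encode enzymes that put ubiquitin on FANCD2 and take it off: *Ube2t* was at 26.5, 46.1 and 39.1 CPM with vehicle and 6.77, 8.97 and 8.75 CPM with RGS (log2 fold change -2.19), and *Usp1* had a log2 fold change of -1.34. In other end joining 4 of 9 were lower, among them *Polq* (-2.54), the polymerase of the alternative route, and *Tdp2* (-0.82), which frees ends from trapped topoisomerase. Other translesion genes had 5 of 12 lower, with *Polk* (-1.23) and *Hltf* (-0.86) first, and other mismatch repair 2 of 6, with *Msh5* (-2.33). Base excision repair had 3 of 16 lower, first the glycosylases *Neil3* (-2.0) and *Nthl1* (-1.43), and 1 higher, *Apex2* (1.02). In other nucleotide excision repair 1 of 14 was lower, the TFIIH subunit *Gtf2h1* (-0.80). Over all tested genes 16.5% were lower and 16.3% higher. Shares between pathways were not tested against each other.

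**Figure D5:**
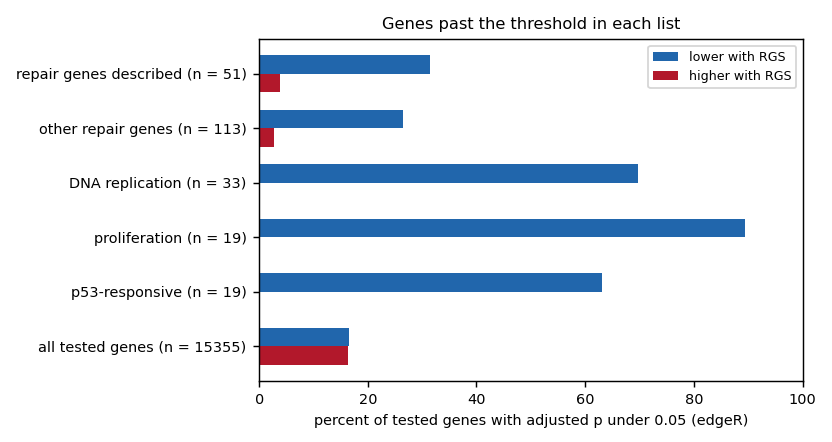
Percent of tested genes past the threshold (adjusted p under 0.05, edgeR) that were lower (blue) or higher (red) with RGS, for the 51 repair genes described, 113 other repair genes, 33 DNA replication, 19 proliferation and 19 p53-responsive genes and all 15355 tested genes. In the repair lists 31.4% and 26.5% were lower and 3.92% and 2.65% higher, beside 16.5% and 16.3% over all genes, and 89.5% of the proliferation genes were lower.

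Proliferation genes moved with the repair genes. Of 19 tested markers of dividing cells 17 were lower, first *Bub1* (log2 fold change -2.81) and *Ube2c* (-1.64), and the sum of the list was 1081 to 1244 CPM with vehicle and 428 to 492 CPM with RGS. *Kif11*, a motor that dividing cells need, was listed at 0 in all 6 tumors, so a 0 in this table need not mean that a gene was silent. DNA replication genes had 23 of 33 lower, first *Rrm1* (-1.29) and *Mcm6* (-1.52), with sums of 1681 to 1761 and 909 to 950 CPM. Of 14 repair genes that are coupled to the cell cycle as background knowledge, 6 fell (42.9%, median log2 fold change -0.92). Of the 37 outside that subset 10 fell (27.0%) and 2 rose (5.41%), with a median of -0.40. Over all tested genes 16.5% were lower and 16.3% higher. The part of proliferation in the decrease of repair genes was not tested. A list of p53-responsive genes had 12 of 19 lower, first *Gadd45a* (-1.56) and *Ccng1* (-1.23), and *Cdkn1a*, the cell cycle inhibitor, was at a log2 fold change of 0.12 (edgeR adjusted p = 0.577).

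Markers of several cell types shifted as well. Of 10 melanocyte genes 2 were tested, *Mlana*, *Tyr* and *Dct* were listed at 0, and the sum was 4.94 to 7.68 CPM with vehicle and 4.53 to 10.5 CPM with RGS. Leukocyte genes summed to 187 to 248 and 920 to 1028 CPM, with *Laptm5* and *Cd53* higher (2 of 2 tested) and *Ptprc*, the defining marker, listed at 0 in all tumors. Macrophage genes summed to 58.9 to 64.7 and 65.4 to 88.2 CPM with *Adgre1* at 0. Only 1 of the 8 macrophage genes was tested, and it did not pass the threshold (log2 fold change 0.24). T and NK cell genes summed to at most 0.602 and 1.42 CPM with *Cd3e* at 0. The only tested gene of that list, *Trac*, was higher (0 counts in every vehicle tumor and 30, 16 and 10 in the RGS tumors). Fibroblast genes summed to 407 to 602 and 294 to 321 CPM (4 of 7 tested lower, 1 higher), endothelial genes to 7.19 to 12.1 and 22.2 to 30.8 CPM (2 of 5 higher), keratinocyte genes to 0.400 to 1.72 and 6.77 to 22.8 CPM (1 of 2 higher) and muscle genes to 9.39 to 13.3 and 6.18 to 10.6 CPM (1 of 4 higher). The part of cell composition in the repair genes was not tested.

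Of the 51 repair genes, 29 overlap the span of another gene, and the strand setting of the counting is not given in the sources used here, so reads from opposite strands may be shared. Among the genes that moved, exonic bases are shared over 16.0% of *Fanci* (with *Polg*), 13.7% of *Fancl* (with *Vrk2*), 7.69% of *Xrcc6* (with *Desi1*), 5.90% of *Pms2*, 5.03% of *Atr*, 3.24% of *Fancd2* and 2.66% of *Xrcc4* (with *Tmem167*). Among those that did not, the share reached 61.7% in *Apex1* (with *Pip4p1*) and 42.7% in *Ercc2*. Of the 22 genes that overlap no other gene, 7 fell and 2 rose, beside 16.5% and 16.3% of all tested genes. The 2 that rose were *Xrcc5* and *Lig4*.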

How the data were processed

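RNA of 6 tumors was sequenced as paired-end reads and aligned with STAR, and the submitters' processing notes name cutadapt 1.18, FastQC 0.11.7, STAR 2.7.1a, featureCounts 1.6.4 and mm10. The authors deposited raw counts per gene with no normalization. Treatment of multi-mapping reads is not given in the sources used here. The table's positions equal those of GENCODE M21 (GRCm38) for all 38971 shared identifiers.

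In R 4.3.3, the 15355 genes whose median count reached 5 in either group were scaled by TMM and compared, 3 RGS against 3 vehicle tumors, with edgeR 4.0.16 (quasi-likelihood F test, Benjamini-Hochberg). The SE was derived from the F statistic and the fold change. The members and lists were chosen with earlier results of these data known. Values in each tumor are given for up to 3 genes per pathway with the smallest adjusted p, all genes that rose and the gene with the largest adjusted p; of other lists up to 2 genes per direction are named. Other repair genes are given by range, and *Clspn*, *Cdkn1a* and *Kif11* were named after their values were seen. Replicates of a group differed by at least 19.6 times sampling noise (chi-square per degree of freedom). Promoter windows are RefSeq's; 30 bases are printed in place of the 60 planned, since some lie inside an annotated transcript. Alternatives were RLE, upper-quartile and no scaling factors, 2 filters, DESeq2 1.42.0, limma 3.58.1 voom, thinning, a length offset, omission of mitochondrial genes or of each tumor, and stricter thresholds. The procedure was tested on simulated data.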

Additional observations from a re-analysis of the deposited data

How the results depend on the processing

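No count, median or gene past the threshold reversed its direction, while 10 repair genes that did not pass it took both signs among the 17 fits. The count of lower repair genes was 13 to 20 with each tumor left out and 16 to 22 over other scalings, filters and tools (main value 16); it was 11 at an adjusted p under 0.01 and 7 among the 22 genes that overlap no other gene, where fewer genes are tested. The count of higher repair genes (main value 2) was 1 with library totals only, with no low-count filter and at an adjusted p under 0.01, 0 where the absolute log2 fold change also had to reach 1, and 1 to 2 with each tumor left out. The median log2 fold change of the repair genes was -0.62 with library totals only, a scaling that also moved the median of all genes from -0.05 to -0.19 and the calls over all genes from 2533 lower and 2503 higher to 3152 lower and 1870 higher. Over all genes, 1562 were lower and 1607 higher at an adjusted p under 0.01, and 1450 and 1168 where the absolute log2 fold change also had to reach 1. Of other repair genes (30 lower, 3 higher), the higher count was 1 with library totals only, 5 with a mean of at least 1 CPM, DESeq2 or a gene length offset, and 1 to 5 with each tumor left out; at an adjusted p under 0.01, 19 were lower and 1 higher. The cause of these shifts was not tested, apart from the stricter thresholds themselves. No paired analysis was possible because the tumor numbers are not shared between the groups. With 3 tumors per group, an exact permutation test of a single value cannot go below 0.1.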
